A study of Mus musculus with 6 samples.

Results

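The genes of the natriuretic peptide and endothelin systems were followed in adrenal glands of BPH mice, a hypertensive inbred strain, and of BPL mice, the hypotensive strain derived alongside it. The members were Nppa, Nppb, Npr1, Npr2, Npr3, Edn1, Edn3, Ece1, Ednra and Ednrb, chosen by name, and every probe set annotated with 1 of these symbols and no other was taken. This gave 11 probe sets for 8 of the 10 genes, out of 12422 probe sets naming 8251 genes. Npr2, the receptor of C-type natriuretic peptide, and Ednra, the endothelin receptor that prefers endothelin-1, had no such probe set and were not analysed here. All mice were male and 12 weeks old, with 3 Affymetrix arrays of total adrenal RNA for BPH and 3 for BPL, and the labels name no treatment of either strain. The labels count 3 mice per strain without tying each array to its own animal, and p-values therefore reflect only the variation among these arrays, which may be technical.

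Natriuretic peptides are hormones of the heart that lower blood pressure by promoting the excretion of salt and water. Atrial natriuretic peptide also restrains aldosterone output from the adrenal cortex through Npr1, a receptor that makes cGMP, while Npr3 has no cyclase domain and mainly removes the peptides from the circulation. Endothelins are peptides that constrict vessels, are cut to their active form by Ece1, and can stimulate aldosterone secretion through the G protein-coupled receptors Ednra and Ednrb.

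The tissue label was checked against markers. The adrenal markers Star (its brighter probe set), which moves cholesterol into mitochondria, and Th, which starts catecholamine synthesis, were bright in both strains, with lowest signals of 88719 and 30380 on BPH arrays and of 75933 and 12088 on BPL arrays. By mean log2 level, the whole lists of adrenal markers were higher in BPH. Mean log2 levels of the cortex list were 14.01 to 14.08 in BPH and 13.61 to 13.79 in BPL. Those of the chromaffin list were 13.51 to 13.78 in BPH and 12.73 to 13.20 in BPL. Summed signals of both lists overlapped between strains. Cortex sums were 767449 to 890609 in BPH and 600006 to 780813 in BPL. Chromaffin sums were 238840 to 313404 in BPH and 147429 to 239570 in BPL. All 13 tested cortex and all 7 tested chromaffin probe sets had positive log2 differences, BPH minus BPL. Of all 7453 tested probe sets, 4510 had a positive difference. The part of the adrenal marker difference in the member signals was not tested. Other tissue was present too. Of 19 probe sets of 12 skeletal muscle markers, 13 were tested and 8 were called lower in BPH, with summed signals of 10003 to 11152 in BPH and of 35326 to 437840 in BPL. Fat markers were bright in both strains, and Adipoq, the adipocyte hormone adiponectin, ran from 55999 to 74162 in BPH and from 56170 to 61269 in BPL. In whole glands, fewer cells of a type and less RNA per cell cannot be told apart. Signals are linear array intensities after scaling to a common median, and strains are compared within each probe set, since signals of different probe sets are not levels on a common scale.

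Only Npr3, the clearance receptor, had a probe set that passed the test between strains, and it was lower in BPH. Of the 11 member probe sets 6 were bright enough to be tested, covering Nppa, Nppb, Npr3, Edn1 and Ece1. Of these 6, 1 was called lower and 0 higher in BPH (limma with Benjamini-Hochberg adjustment over 7453 probe sets, threshold 0.05). Of all tested probe sets 4.11% were called, made up of 0.926% called lower and 3.18% called higher. The called member probe set was the only one of the 6 with an unadjusted p under 0.05, against 20.6% of all tested probe sets. The groups did not overlap for 3 of the 11 member probe sets (1 each of Npr3, Edn1 and Edn3), against 21.3% of all probe sets, so the members' separation was near that of the table as a whole. The median log2 difference of the 6 tested probe sets was -0.12, and that of all tested probe sets was 0.08. The members' median rested on single arrays and was 0.09 without BPH replicate 2, -0.01 without BPL replicate 1 and -0.23 without BPH replicate 3.

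**Figure D1:**
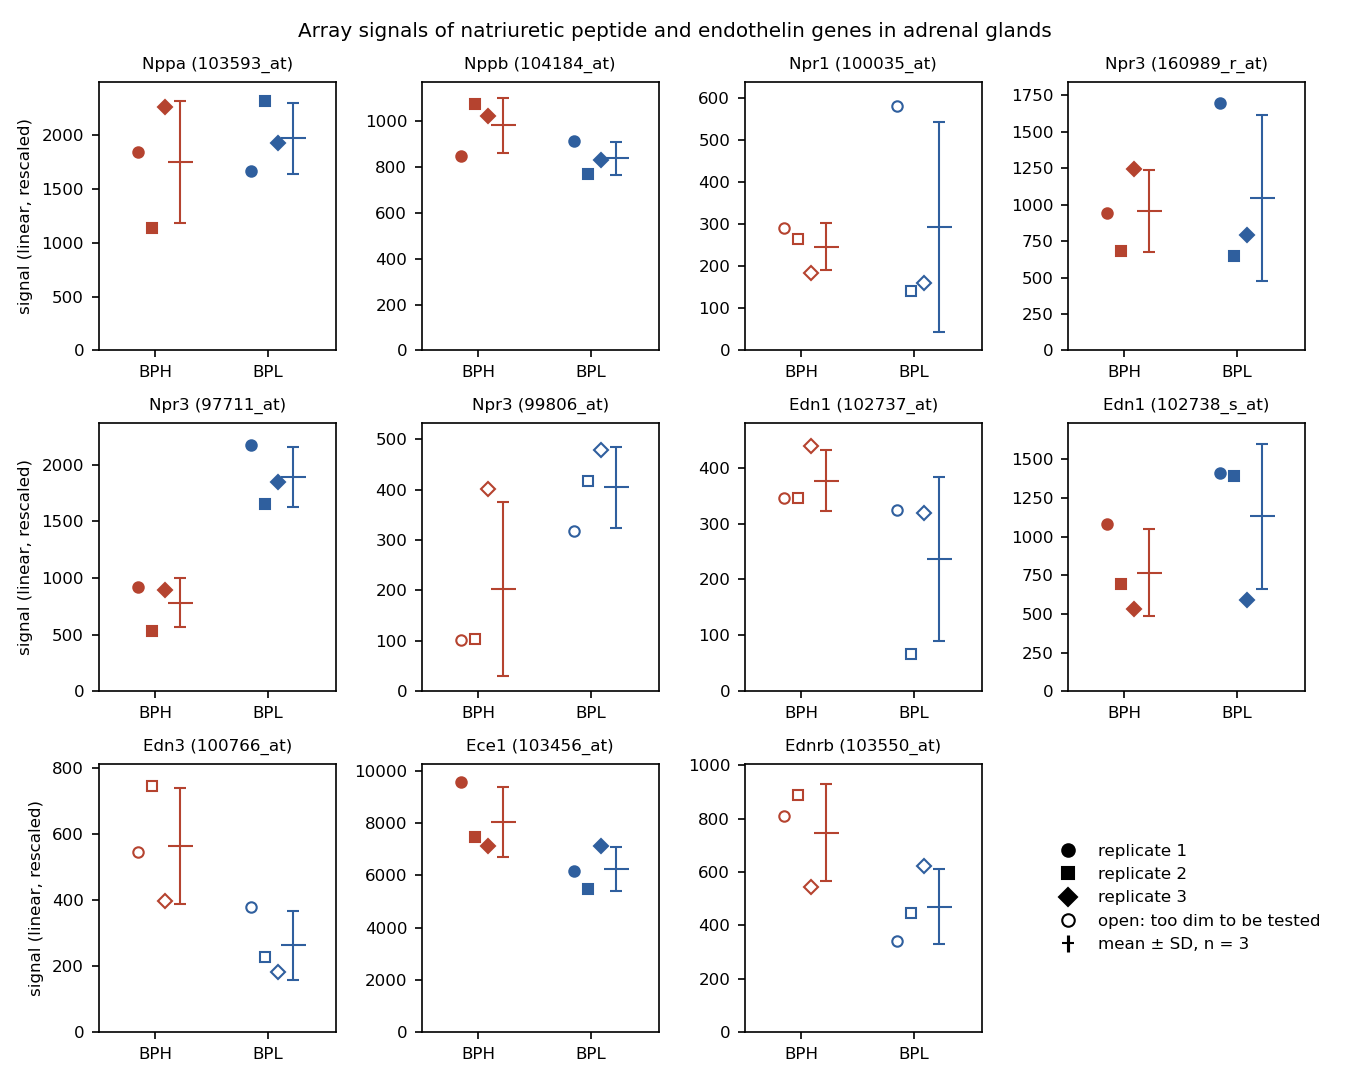
Linear rescaled signal (y axis, from 0) of every member probe set in the 3 BPH arrays (left, red) and the 3 BPL arrays (right, blue), with replicates as symbols and mean ± SD beside them; open symbols are probe sets below the brightness filter. The Npr3 probe set 97711_at has all BPH points at 923 or lower and all BPL points at 1649.8 or higher, while the strains overlap for most other members.

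Among the ligands, Nppa encodes the precursor of atrial natriuretic peptide. Its probe set had signals of 1847, 1138 and 2262 in BPH replicates 1, 2 and 3, against 1667, 2321 and 1930.2 in BPL. The strains overlapped, with the lowest value in BPH replicate 2 and the highest in BPL replicate 2. The log2 difference, BPH minus BPL, was -0.19 ± 0.24 (SE, limma adjusted p = 0.69), with a 95% interval from -0.74 to 0.36. Without BPH replicate 2 it was 0.058, so its sign rested on that array.

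Nppa is also a heart muscle transcript, and the summed signal of 6 heart muscle markers, Nppa among them, was 5320 to 6279 in BPH and 7057 to 13598 in BPL. Actc1, the cardiac actin that skeletal muscle also makes, was the brightest of the list. It stood at 2247 to 2782 in BPH and at 3528 to 9672 in BPL in its tested probe set. That probe set was not called (limma adjusted p = 0.072). The other Actc1 probe set, below the filter, overlapped, at 88.0 to 319 in BPH and 69.4 to 331 in BPL. Tnni3, the cardiac troponin I, stood at 232 to 952 in BPH and at 760.4 to 1247 in BPL, a log2 difference of -0.65 (limma adjusted p = 0.31). Tnnt2, the cardiac troponin T, ran from 528 to 738 in BPH and from 314 to 687 in BPL, below the filter. Myh6, the alpha myosin heavy chain, and Myl7, the atrial myosin light chain, were below it too, with a highest signal of 196 on any array. The part of heart muscle markers in the Nppa signal was not tested.

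Nppb, which encodes B-type natriuretic peptide, had signals of 846, 1073 and 1024 in BPH and of 914, 768 and 831 in BPL. The means were 981 ± 119 in BPH and 838 ± 73.3 in BPL (SD, n = 3), and the groups overlapped because BPH replicate 1 lay below BPL replicate 1. The log2 difference was 0.18 ± 0.15 (SE, limma adjusted p = 0.53), with a 95% interval from -0.17 to 0.54. Nppb and Nppa are direct neighbours on chromosome 4, with 0 annotated genes between them in the RefSeq table. Neither neighbour passed the test.

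To put the members beside the regulators known for them, the 250 bases before the annotated start of each measured member were searched on both strands for an AP-1 element (TGANTCA), a cAMP response element (TGACGTCA), a GATA factor motif (GATAA) and a TATA box (TATAAA). The windows of Nppa and Nppb held GATAA and TATAAA, and none of the 8 genes' windows held the AP-1 or cAMP letters. The windows of Nppb, Npr1, Npr3 and Ednrb, and some of the windows of Ece1, reach into the annotated gene, whose span in the gene table begins further upstream, so offsets there count from 1 annotated start among others. Over 32851 promoter windows of the same length, 22.6% held GATAA, 12.4% TATAAA, 6.75% the AP-1 letters and 1.55% the cAMP element. In Nppb the GATAA matches began 94 and 83 bases before the start, and TATAAA began 31 bases before it. In Nppa the GATAA matches (1 on each strand) began 121 and 75 bases before the start, and TATAAA only 9 bases before it. The window of Nppa is shown because it carries these motifs for the ligand that defines the family, and that of Edn3 because its strain groups did not overlap after rescaling. Motif letters are in capitals (GATAA, its reverse complement TTATC, and TATAAA), and the Edn3 window held none of the motifs. These sequences are from RefSeq, build GRCm38.p6, plus strand, at chr4:148000472-148000721 for Nppa and chr2:174760369-174760618 for Edn3.
Nppa: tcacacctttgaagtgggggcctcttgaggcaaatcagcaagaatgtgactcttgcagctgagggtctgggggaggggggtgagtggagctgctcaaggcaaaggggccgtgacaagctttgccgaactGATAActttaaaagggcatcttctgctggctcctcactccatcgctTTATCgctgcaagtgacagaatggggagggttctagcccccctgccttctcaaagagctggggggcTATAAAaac
Edn3: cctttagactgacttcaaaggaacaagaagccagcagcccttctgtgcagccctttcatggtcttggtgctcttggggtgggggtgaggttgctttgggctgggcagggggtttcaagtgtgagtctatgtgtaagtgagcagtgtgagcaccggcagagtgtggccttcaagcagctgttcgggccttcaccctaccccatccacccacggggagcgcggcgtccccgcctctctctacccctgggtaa
A match describes the letters of the window and does not show binding, and the absence of a match says only that these letters are not there.

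Edn1 encodes the precursor of endothelin-1 and was read by a pair of probe sets that differed in sign. The brighter one (102738_s_at) had signals of 1079, 696 and 529.6 in BPH and of 1414, 1389.9 and 592 in BPL. BPL replicate 3 lay among the BPH values, so the groups overlapped. Its log2 difference was -0.43 ± 0.31 (SE, limma adjusted p = 0.47), with a 95% interval from -1.14 to 0.29. Single arrays moved that value by over 1.5 times, to -0.76 without BPL replicate 3, -0.65 without BPH replicate 1, -0.24 without BPH replicate 3, and -0.25 and -0.26 when BPL replicate 1 or 2 was left out. The dimmer one (102737_at) was below the filter, with signals of 345, 346 and 439 in BPH and of 324, 67.1 and 319 in BPL. Each BPH value was above each BPL value, with BPL replicates 1 and 3 just under the lowest BPH array, and with the authors' scaling the groups overlapped. In a fit with no brightness filter its log2 difference was 0.46 ± 0.28 (SE, limma adjusted p = 0.49).

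Edn3 encodes endothelin-3, the ligand that acts mainly through Ednrb. Its probe set, also below the filter, had signals of 546, 744 and 396 in BPH and of 379, 227 and 181 in BPL. All BPH values were higher, but the lowest of them, in BPH replicate 3, was close to BPL replicate 1. The means were 562 ± 175 in BPH and 263 ± 104 in BPL (SD, n = 3), a ratio of 2.14. With no filter the log2 difference was 0.71 ± 0.24 (SE, limma adjusted p = 0.25, where 1.02% of 12422 probe sets were called), with an unadjusted 95% interval from 0.16 to 1.27. On the authors' scaling the lowest BPH value was 406 and the highest BPL value 417, so the groups overlapped.

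Ece1, the membrane protease that releases mature endothelins, had signals of 9575, 7459.8 and 7107 in BPH and of 6164, 5460.4 and 7119 in BPL. BPH replicate 3 lay just under BPL replicate 3, and the other BPH arrays were above all BPL arrays. The log2 difference was 0.35 ± 0.18 (SE, limma adjusted p = 0.31), with a 95% interval from -0.06 to 0.76. It was 0.22 without BPH replicate 1, was positive in all 15 alternative settings and was called in 0 of them by limma (adjusted p from 0.22 to 0.93), with an unadjusted p of 0.084 in the reported fit.

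The receptors gave the largest and the smallest differences of the set. Npr1, the guanylyl cyclase receptor of atrial and B-type natriuretic peptide, was below the filter, with signals of 291, 266 and 184 in BPH and of 582, 141 and 159 in BPL. BPL replicate 1 stood far above the other BPL arrays, and the BPH values lay between. With no filter the log2 difference was -0.04 ± 0.32 (SE, limma adjusted p = 0.97), with an interval from -0.80 to 0.71 that leaves room for a change in either direction.

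Ednrb, the receptor that binds all endothelins, was also below the filter, at a mean log2 signal of 9.62 where 9.68 was the limit. Its signals were 808, 889 and 542 in BPH and 344, 446 and 621 in BPL. BPH replicate 3 lay below BPL replicate 3, and the other BPH arrays were above all BPL arrays. With no filter the log2 difference was 0.50 ± 0.23 (SE, limma adjusted p = 0.38), with an interval from -0.03 to 1.03.

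Npr3 had 3 probe sets, and they did not give the same result. The called one (97711_at) had signals of 923, 534 and 892 in BPH replicates 1, 2 and 3, against 2178, 1649.8 and 1848 in BPL. All BPH arrays were below all BPL arrays with this scaling, with the authors' scaling and after quantile normalization. The means were 783 ± 216 in BPH and 1892 ± 267 in BPL (SD, n = 3), so the mean was 2.42 times higher in BPL. The log2 difference was -1.10 ± 0.21 (SE, limma adjusted p = 0.024), with an unadjusted 95% interval from -1.58 to -0.63.

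A second Npr3 probe set (160989_r_at), also tested, had signals of 943, 683 and 1243 in BPH and of 1696, 648 and 791 in BPL. These groups overlapped throughout, with BPL replicate 1 highest and BPL replicate 2 lowest of the 6 arrays. Its log2 difference was -0.04 ± 0.31 (SE, limma adjusted p = 0.95), with a 95% interval from -0.76 to 0.67. It was 0.31 without BPL replicate 1 and 0.14 without BPH replicate 2.

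The third Npr3 probe set (99806_at) was below the filter, with signals of 101, 104 and 401 in BPH and of 318, 416 and 478 in BPL. BPH replicates 1 and 2 were below all BPL arrays, whereas BPH replicate 3 lay within the BPL range. With no filter the log2 difference was -0.65 ± 0.29 (SE, limma adjusted p = 0.37), with an interval from -1.33 to 0.02.

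Which transcripts of Npr3 each of the 3 probe sets reads was not analysed here.

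**Figure D2:**
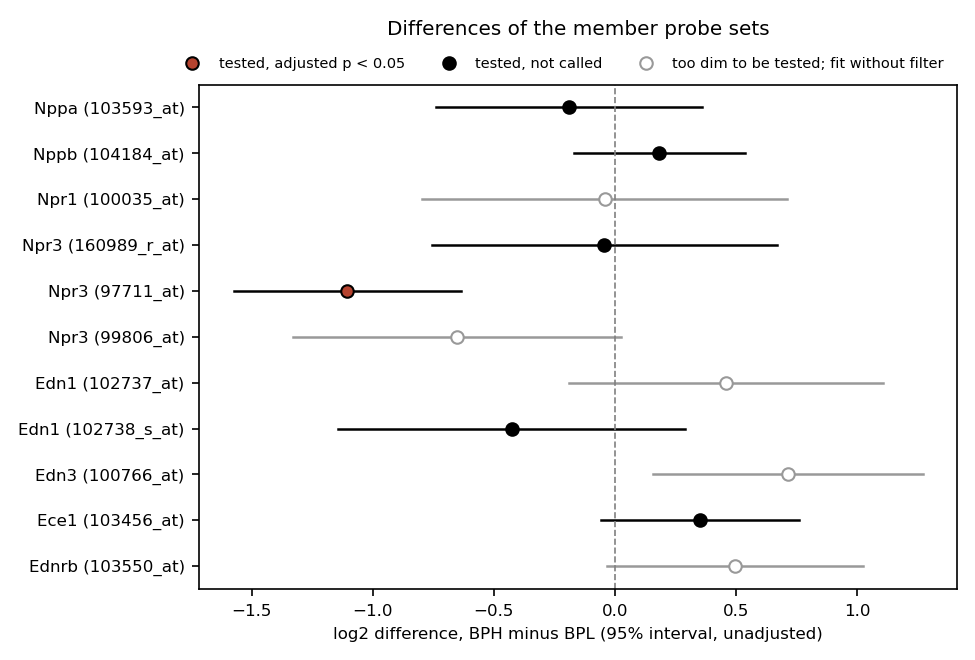
Log2 difference (x axis, BPH minus BPL) of the 11 member probe sets (rows) with unadjusted 95% intervals; grey rows are below the brightness filter and come from the fit with no filter. The interval of Npr3 97711_at runs from -1.58 to -0.63, that of Edn3 from 0.16 to 1.27, and the other 9 include 0.

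The call of Npr3 97711_at depended on some of the arrays and on the filter. It was kept without BPH replicate 3 or BPL replicate 3 (limma adjusted p = 0.049 and 0.044). It was lost without BPH replicate 1, BPH replicate 2, BPL replicate 1 or BPL replicate 2 (limma adjusted p = 0.056, 0.083, 0.075 and 0.053) and with no filter (limma adjusted p = 0.068). Over the 14 alternatives in which the probe set was tested its log2 difference stayed negative, from -1.31 to -0.83, and 8 of them called it (limma adjusted p from 0.015 to 0.23).

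**Figure D3:**
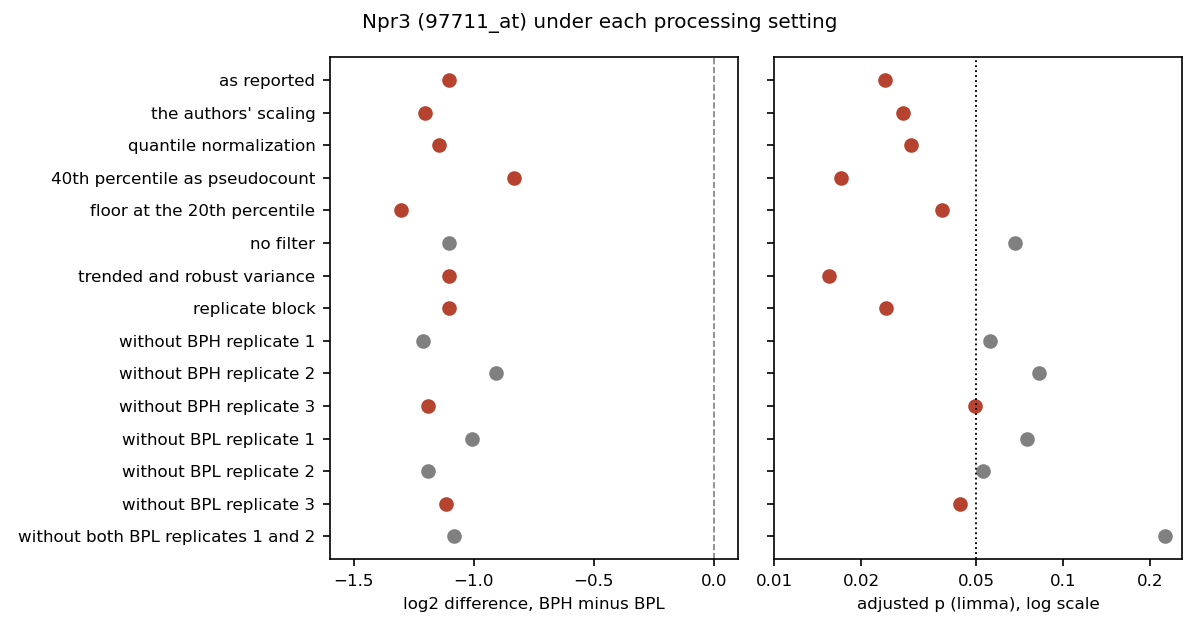
Log2 difference (left, BPH minus BPL) and limma adjusted p (right, log axis, dotted line at 0.05) of Npr3 97711_at in the reported fit and 14 alternatives; red points are called and grey ones are not. The difference lies between -1.31 and -0.83 throughout, while the adjusted p runs from 0.015 to 0.23.

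Npr3 is abundant in fat and is also made by vessels, so marker levels are given beside it. The summed signal of 8 probe sets of 6 fat markers was 204049, 143142 and 151880 in BPH replicates 1, 2 and 3, and 203707, 198818 and 188610 in BPL. The sum was lower in BPH replicates 2 and 3 than in any BPL array. That of BPH replicate 1 was the highest of the 6, just above BPL replicate 1. Mean log2 levels of the list were 13.57, 13.19 and 13.40 in BPH and 13.66, 13.49 and 13.60 in BPL. By this measure BPH replicate 1 lay between BPL replicates 2 and 3, and the other BPH arrays lay below all BPL arrays. Ucp1, the uncoupling protein of brown fat, had signals of 46044, 27117 and 27570.1 in BPH and of 64979, 63359 and 48779.8 in BPL (probe set 99507_at). Like Npr3 97711_at, it was lower in every BPH array, with a log2 difference of -0.84 that was not called (limma adjusted p = 0.097). Of 7 tested fat probe sets 0 were called by limma (4 with an unadjusted p under 0.05, 3 lower and 1 higher), with a median log2 difference of -0.39. Fat markers did not all move in the same direction, with 4 differences negative and 3 positive, from -0.84 to 0.99. Beside Ucp1, the negative ones included Cidea at -0.63 and Fabp4 at -0.39 (limma adjusted p = 0.22 and 0.30). Fabp4 was lower in every BPH array, while the strains overlapped for Cidea. Adipoq stood at 0.08 and Lep (98443_at), the adipocyte hormone leptin, at 0.07. The part of fat tissue in the Npr3 difference was not tested.

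Skeletal muscle markers also moved with the strains. Their sum was 10885, 11152 and 10003 in BPH replicates 1, 2 and 3, and 179058, 437840 and 35326 in BPL, so every BPH array was below every BPL array, as for Npr3 97711_at. With BPL replicates 1 and 2 left out the Npr3 difference was -1.08 and was not called (limma adjusted p = 0.23), and the remaining BPL array still had a higher muscle sum than any BPH array. The part of muscle tissue in the Npr3 difference was not tested.

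Vascular markers had median differences near or above 0. Of 18 tested endothelial probe sets 0 were called by limma (4 with an unadjusted p under 0.05), with a median log2 difference of 0.06 and summed signals of 52310 to 56706 in BPH and 39267 to 53518 in BPL. Of 7 tested smooth muscle and pericyte probe sets, 1 was called higher and 0 lower in BPH, with a median of 0.33 and sums of 21790 to 25075 in BPH and 14256 to 21982 in BPL. The called one was Tagln, the smooth muscle protein transgelin (log2 difference of 0.93, limma adjusted p = 0.035). Of the 7, 5 differences were positive and 2 negative, and 3 had an unadjusted limma p under 0.05, 2 higher and 1 lower. The negative ones were Des at -0.99 (limma adjusted p = 0.17) and Pdgfrb at -0.07. The part of these tissues in the levels of Edn1, Ednrb and Npr1 was not tested.

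**Figure D4:**
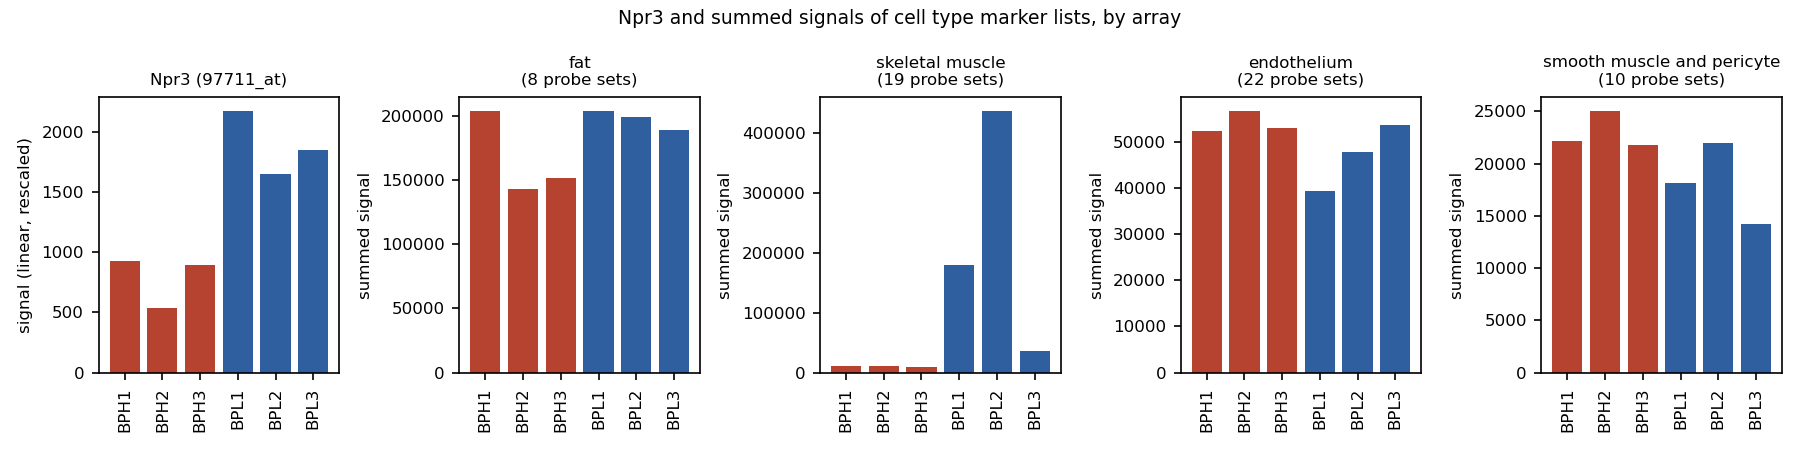
Bars, from 0, of the Npr3 97711_at signal and of the summed signal of fat, skeletal muscle, endothelial and smooth muscle markers in each BPH (red) and BPL (blue) array. Npr3 and skeletal muscle signals are lower in every BPH array, and fat sums run from 143142 to 204049 in BPH and from 188610 to 203707 in BPL.

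Other genes of the 2 pathways gave no call. Of 63 genes listed for peptide processing, for cGMP and nitric oxide signalling and for endothelin receptor signalling, 41 had a probe set with 1 symbol and 24 were tested, through 38 probe sets. None of the 38 was called (0 by limma, 6 with an unadjusted p under 0.05, 4 higher and 2 lower). Of all tested probe sets 4.11% were called and 20.6% had an unadjusted limma p under 0.05, so 0 calls among 38 is near the background. The median log2 difference of the 38 was 0.22 beside 0.08 for all tested probe sets. By arm the median was 0.40 over 5 processing probe sets, 0.35 over 4 cGMP and nitric oxide probe sets and 0.13 over 29 endothelin receptor probe sets. With the authors' scaling the median of all 38 was 0.12 and that of all tested probe sets -0.02.

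Among the processing enzymes, Furin, a convertase that cuts many prohormones, had signals of 7682, 8051 and 7497 in BPH and of 8517, 9292 and 8574 in BPL. All BPH values were lower, by a log2 difference of -0.18 ± 0.14 that was not called (SE, limma adjusted p = 0.50). Corin, the protease that activates the Nppa precursor, and Mme, the protease neprilysin that breaks natriuretic peptides down, were below the filter, at 31.5 to 325 and 66.6 to 310.2 in BPH and at 174 to 304 and 181 to 689 in BPL. The ligand genes Nppc and Edn2 were also below it, at 67.0 to 189.8 and 102 to 152 in BPH and at 77.8 to 182 and 133 to 173 in BPL. Nos3, the endothelial nitric oxide synthase, stood at 163 to 204 in BPH and at 187 to 330 in BPL, below the filter as well. Ece2, Prkg1, Pde2a and Pde5a were not analysed here, since no probe set carried their symbol alone.

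Without BPL replicate 3, 2 of the 38 pathway probe sets were called higher in BPH, where 4.99% of all 7453 tested probe sets were called in either direction, so this share is near the background. They were 1 each of Pcsk6 and Gna11, genes picked for mention with their values known. Pcsk6, a convertase known to activate Corin, had signals of 1936, 1562 and 1551 in BPH and of 491, 884 and 1457 in BPL. BPL replicate 3 was close to the BPH arrays and the other BPL arrays were well below, a log2 difference of 0.80 ± 0.29 over all arrays (SE, limma adjusted p = 0.18). Gna11, a G protein subunit that couples endothelin receptors to phospholipase C, had differences of 0.78 ± 0.38 and 0.15 ± 0.20 in its pair of probe sets (SE, limma adjusted p = 0.28 and 0.71).

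The tested genes whose log2 signals over the 6 arrays were most like those of Npr3 97711_at were Zmynd8, Hgs and Rnf20, with Pearson correlations of 0.988, 0.988 and 0.986. This describes the arrays, which share the strain difference and the scaling. Zmynd8, a chromatin reader, stood at 584 ± 63.6 in BPH and 951 ± 92.4 in BPL (SD, n = 3). Rnf20, a ubiquitin ligase of histone H2B, stood at 1234 ± 275 in BPH and 2508 ± 225 in BPL (SD, n = 3). Hgs, an endosomal sorting protein, stood at 12943 ± 553 in BPH and 14374 ± 411 in BPL (SD, n = 3). Only Rnf20 was called between strains (limma adjusted p = 0.031), and Zmynd8 and Hgs were not (limma adjusted p = 0.092 and 0.57).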

How the data were processed

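Biotin-labelled cRNA of BPH and BPL adrenals was read on 3 Affymetrix arrays per strain, per the labels' protocols. The deposited values are signal intensities on a linear scale, and the submitters' processing notes name MAS5. The MAS5 version and its settings were not given in the sources used here. Precision is limited by the number of arrays, and detection calls were not used.

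The table holds 12488 probe sets, of which 66 controls were left out, and platform annotation gave 1 symbol for 10833 of the rest. Array medians ran from 945 to 1144 and were scaled to their mean. Values were log2(signal + 203), where 203 is the 20th percentile, and a fold change on this scale understates that of dim genes. The 40% with the lowest mean log2 value were not tested, leaving 7453. Strains were compared with limma 3.58.1 (R 4.3.3), lmFit and eBayes, 2-sided, with Benjamini-Hochberg adjustment. The fit was also run on simulated data, drawn independently for each probe set. These held no shared array or tissue effects, so they do not test the fit under such effects. Alternatives were other scalings, pseudocounts, filters and variance models, a replicate block and arrays left out.

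Members, lists and settings were chosen with earlier results of these data known. All members and probe sets are given. Other pathway genes are named if called, or as fixed contrasts (Nppc, Edn2, Ece2, Corin, Furin, Mme, Prkg1, Pde2a, Pde5a and Nos3). The 2 brightest markers were named for the fat and heart muscle lists but not for the others. Star, Th and other markers named were chosen after their values were seen, without regard to rank in brightness. The 3 genes most correlated with a called member are named. Lists of fibroblast, chromaffin, cortex and blood markers had 10, 7, 13 and 2 tested probe sets. Of these 0, 1, 2 and 0 were called, all higher in BPH, where 3.18% of all tested probe sets were called higher. No pair of arrays shared more than 1 identical value.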

Additional observations from a re-analysis of the deposited data

How the results depend on the processing

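The count of all probe sets called was 306, and 127 with no filter, 92 without both BPL replicates 1 and 2, and 112 to 372 with 1 array left out. The lone BPL array in the second of these settings is assumed to vary like the BPH arrays. The member count was 1, always Npr3 97711_at where it was not 0. It was 0 with no filter and without both BPL replicates 1 and 2, and 0 to 1 with 1 array left out. It was also 0 with the lowest 60% left out, where 2 member probe sets (of Nppa and Ece1) were tested and Npr3 was not. The pathway count was 0, and 0 to 2 with 1 array left out. Among single members, the sign turned for Nppa (0.058 without BPH replicate 2, and -0.38 to 0.058 with 1 array left out), for Npr3 160989_r_at (0.14 without BPH replicate 2, 0.31 without BPL replicate 1, -0.27 to 0.31 with 1 array left out, and 0.19 without both BPL replicates 1 and 2) and for Edn1 102738_s_at (0.25 without both BPL replicates 1 and 2). The cause was not tested.

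Deviations from the group mean had correlations of -0.06, -0.05 and -0.18 between same-numbered arrays across tested probe sets. Differently numbered arrays had -0.06 to 0.12. Centring within groups of 3 ties these values together, so they cannot show whether the numbers pair the samples, and the labels do not say. With the replicate block 239 probe sets were called, and 1 member (limma adjusted p = 0.024 for Npr3 97711_at) and 0 pathway probe sets by limma. Dim members (Npr1, Edn3, Ednrb and a probe set each of Npr3 and Edn1) were fitted only with no filter, and their signal over background was not measured here.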
